A study of Mus musculus with 9 samples.

Results

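The genes described here are 44 antiviral genes that answer mainly to type I interferon, followed over 9 messenger RNA libraries of mouse T helper cells. They were chosen by symbol from a table of 22017 genes, and all 44 were found in it. Naive T cells from spleens of wild-type C57BL/6 mice were stimulated with antibodies to CD3 and CD28 for 3 days, received IL-2 from day 5, met the same antibodies anew on day 7 and gave their RNA on day 10. Th1 cells were held throughout in IL-12 (10 ng/mL) with an antibody against IL-4. Th17 cells were held throughout in TGF-beta (1 ng/mL), IL-6 (20 ng/mL) and IL-1beta (10 ng/mL) with antibodies that block IL-4, IL-12 and interferon-gamma. Th17-derived Th1 cells were moved on day 7 out of the Th17 medium into that of Th1. Each group had 3 libraries, and all 3 groups shared the antibodies to CD3 and CD28 and IL-2 (100 U/mL) at the second activation. The groups are cultured cells under fixed media, so cell fate cannot be told apart from the medium present when RNA was taken, which blocked interferon-gamma in Th17 cultures alone.

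Type I interferons bind a receptor made of IFNAR1 and IFNAR2, whose kinases JAK1 and TYK2 phosphorylate STAT2, which joins IRF9 in a complex that binds interferon-stimulated response elements in the promoters of antiviral genes. Interferon-gamma, the product of Th1 cells, uses its own receptor and acts mainly through gamma-activated sites, and many antiviral genes answer to both interferons. The products of the genes sense foreign nucleic acid, block viral replication or release, or adjust the interferon signal itself.

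Values are FPKM (fragments scaled by transcript length and library size), and differences are between group means of log2(FPKM + 1), a scale that understates differences of low genes relative to the ratio of their FPKM. A gene was tested where at least 3 libraries held at least 1 FPKM, which 10538 genes and 40 of the 44 antiviral genes did. Oas2 met this limit through the 3 Th17-derived Th1 libraries alone, the group where it was high, so its differences are descriptions and the counts are also given without it. Oasl2, Ifit3b, Ddx60 and Ifi44 had fewer than 3 such libraries outside Th17-derived Th1, so they too met the limit with the help of that group. They remain in all counts, and their p-values are to be read with that limit. Oas1a, Oasl1, Mx2 and Rsad2 were below it and are given by their values. Tests were made with limma over all tested genes, p-values were adjusted by the Benjamini-Hochberg method, and a gene passed at an adjusted p below 0.05. Values are means ± SD with n = 3 libraries in each group. The labels do not say whether replicates came from separate cultures or mice, so the p-values rest on library-to-library spread alone, which may be technical.

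The libraries summed to 382581 to 405985 FPKM, and their read depth is unknown. Replicate 3 of Th17 held the highest value of its group for 34 of the 40 tested antiviral genes (42.9% of all tested genes), and replicate 3 of Th17-derived Th1 for 30 (36.8%). Replicate 2 of Th1 held the lowest value of its group for 30 (38%). Cd8a, a marker of CD8 T cells, reached 104 to 141 FPKM in the 3 libraries numbered 3, and the remaining 6 held 15.3 to 54.9 FPKM. Cd4 was at 57.1, 52.9 and 96.9 FPKM in replicate 3 of Th1, Th17 and Th17-derived Th1, below Cd8a in each. In the remaining 6 it was at 81.1 to 124 FPKM and above Cd8a. The part of Cd8a in the results was not tested beyond a fit with Cd8a and Cd8b1 as a covariate. T cell markers (10 genes) summed to 1542 to 1751 FPKM. Among markers of other cells, Siglech of plasmacytoid dendritic cells, C1qa, C1qb, C1qc and Fcgr1 of macrophages, Flt3 and Cd209a of dendritic cells, and S100a8 and S100a9 of neutrophils were listed at 0 in all 9 libraries. The 8 dendritic cell markers summed to 24.5 to 32.7 FPKM in Th17-derived Th1, 9.14 to 17.9 in Th17 and 11.3 to 29.6 in Th1 cells, almost all of it Cd74 (21.2 to 28.3 FPKM in Th17-derived Th1). The 6 neutrophil markers summed to 9.38 to 34.7 FPKM in Th17-derived Th1, 0.0761 to 0.745 in Th17 and 2.27 to 3.14 in Th1 cells, nearly all of it Ly6g, which passed as higher in Th17-derived Th1 than in both other groups (log2 differences 3.51 and 2.19, limma adjusted p = 0.000987 and 0.0134) and so moved with the antiviral genes. The 8 plasmacytoid dendritic cell markers summed to 45.3 to 59.3 FPKM in Th17, 49.0 to 57.7 in Th17-derived Th1 and 59.6 to 75.7 in Th1 cells, mostly Irf8, and the 6 NK cell markers to 13.2 to 32.8, 14.2 to 34.7 and 8.85 to 24.8 FPKM in the same order. The sums of 10 macrophage and 8 B cell markers were at most 12.0 and 5.62 FPKM. The part of these markers in the results was not tested. In bulk libraries such as these, fewer cells that express a gene and less RNA per cell cannot be told apart.

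**Figure D1:**
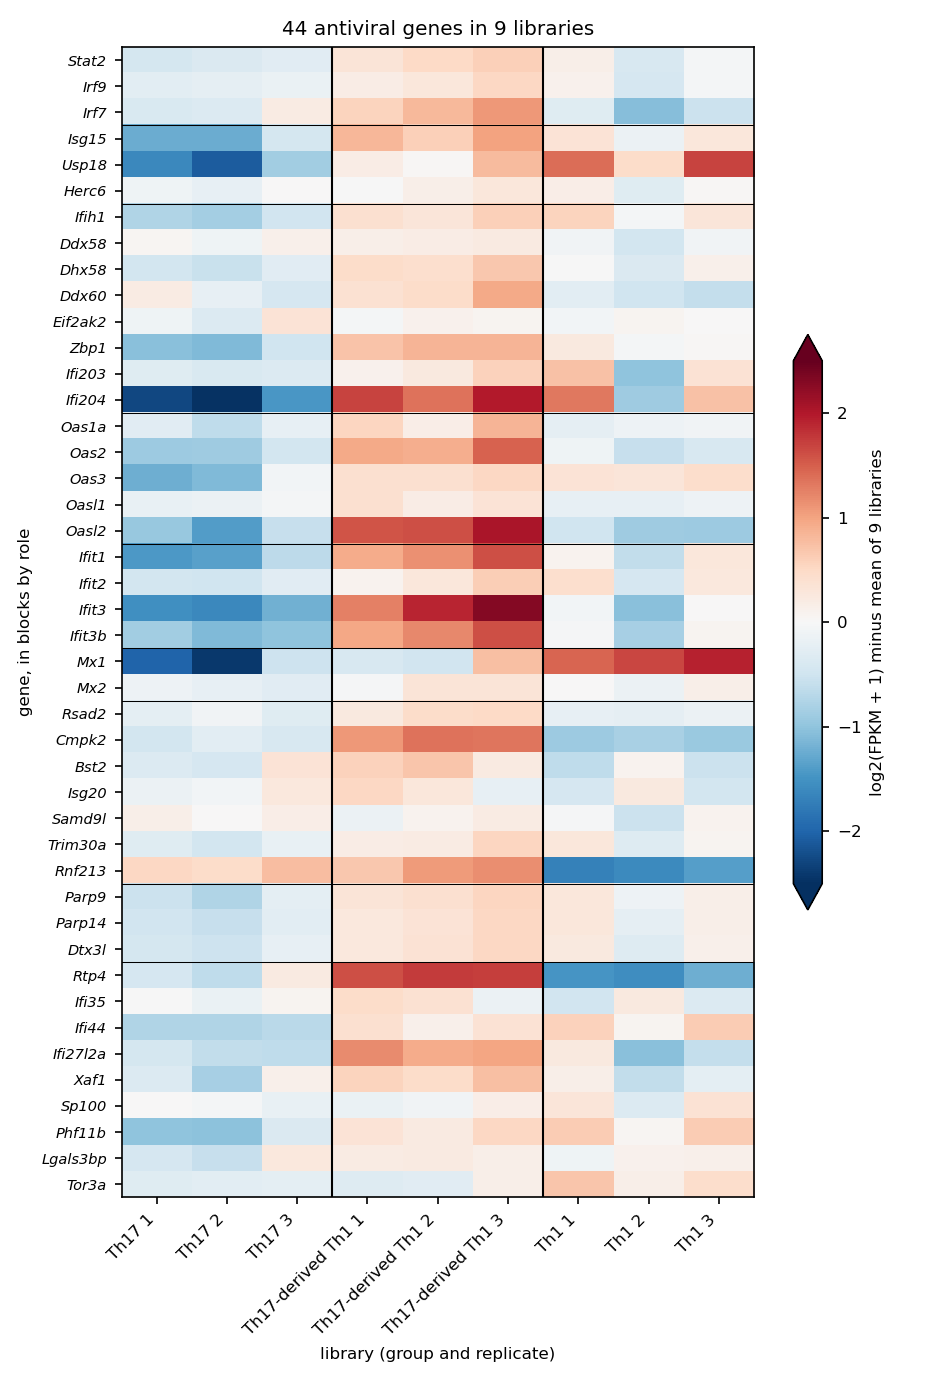
Heat map of the 44 antiviral genes (rows, in blocks by role) in the 9 libraries (columns). Color gives log2(FPKM + 1) minus the mean of the gene over the 9 libraries, so red is above and blue below that mean. The Th17-derived Th1 columns are red for most rows, whereas Mx1 and Usp18 are reddest in Th1, and Rnf213 and Rtp4 are bluest there.

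The first comparison was of Th17-derived Th1 with Th17 cells and asked how the antiviral genes stood after the switch to the Th1 condition. Of the 44 genes, 27 were higher in Th17-derived Th1 cells, 0 were lower, 13 did not pass and 4 were not tested, beside 6.43% of all tested genes that were higher and 9.49% that were lower. At an unadjusted limma p below 0.05, 31 were higher and 0 lower, a limit at which the share of all tested genes was not counted. Without Oas2, 26 of 39 tested genes were higher. The median difference of the 40 was 0.93 log2 units against -0.12 for all tested genes. Ifi204 differed most, followed by Ifit3, Oasl2 and Ifit1. In 34 of the 44 genes, 30 of them tested, all 3 Th17-derived Th1 libraries were above all 3 Th17 libraries, as in 13.2% of all tested genes. The genes were chosen with earlier results of these data known, so these counts are descriptions of the list.

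**Figure D2:**
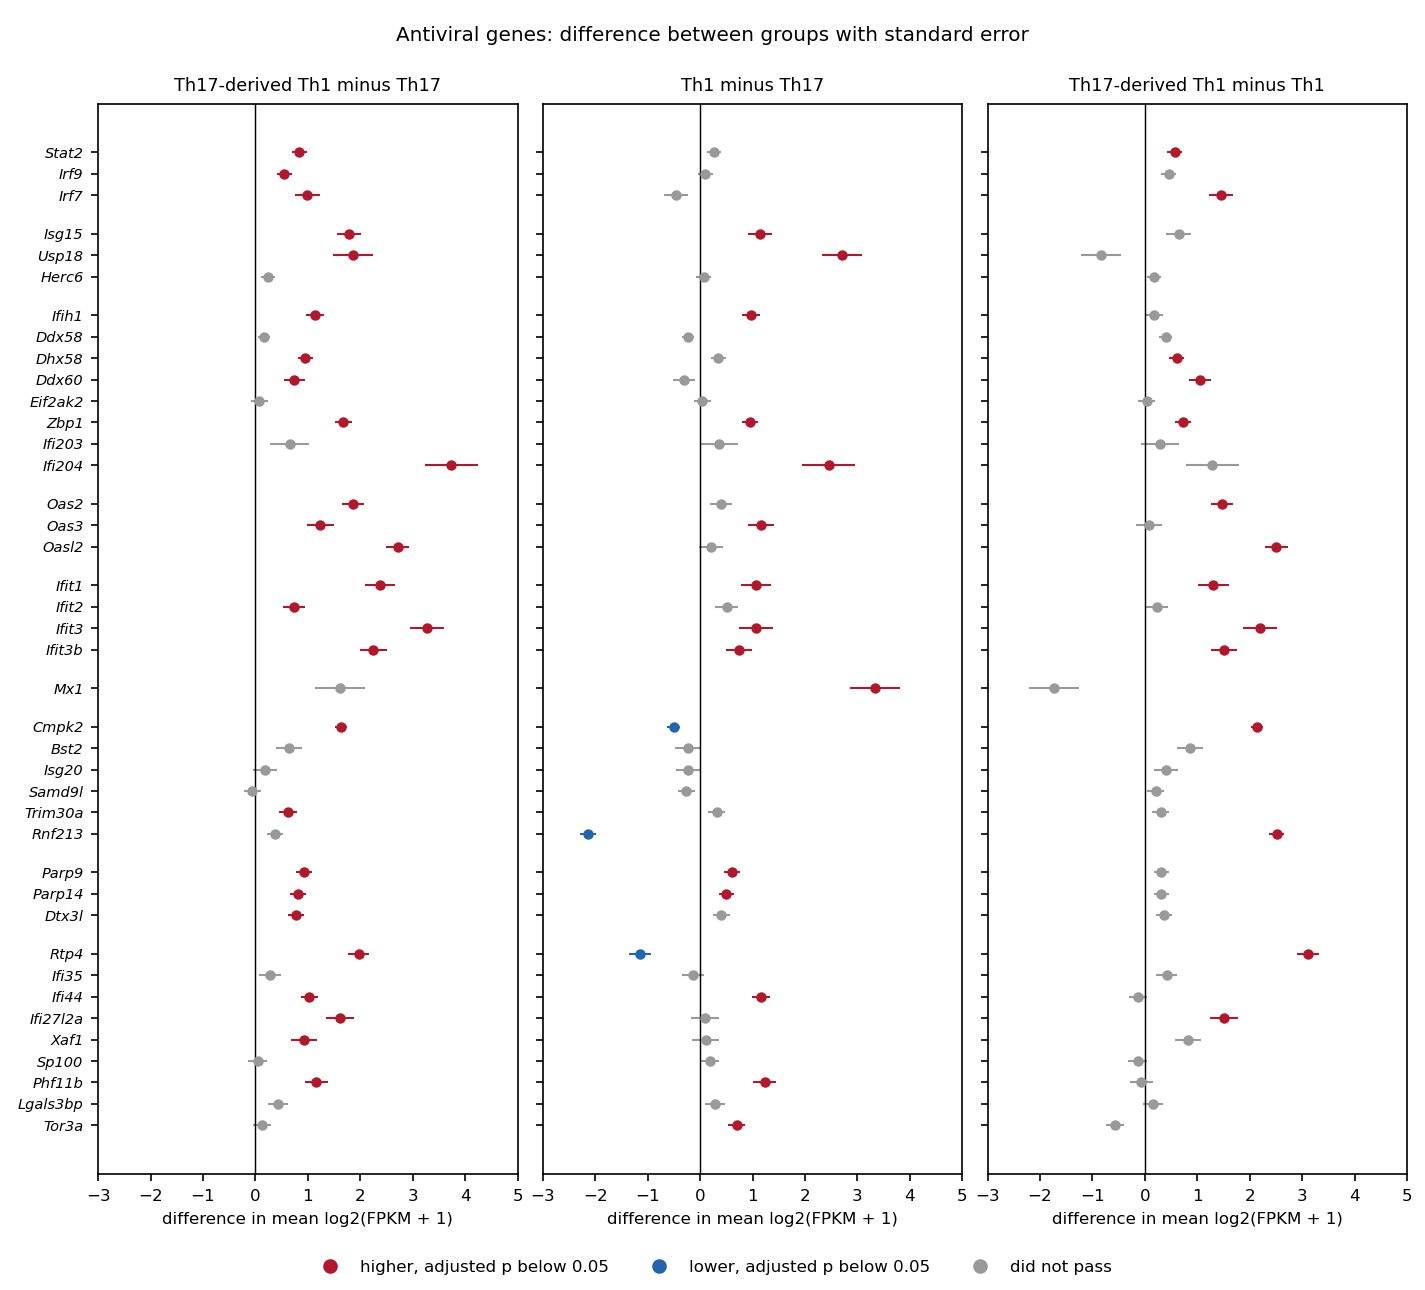
Differences in mean log2(FPKM + 1) for the 40 tested antiviral genes in 3 comparisons, with horizontal bars for the standard error; red and blue points passed at an adjusted p below 0.05 and gray points did not. Red points number 27, 15 and 14 from left to right, and the 3 blue points (Cmpk2, Rnf213 and Rtp4) are in the comparison of Th1 with Th17.

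Among the signaling members, Stat2 (chromosome 10, 128270559 to 128292849) encodes a transcription factor of the type I interferon complex. It stood at 17.0, 17.9 and 19.1 FPKM in the Th17 libraries (replicates 1, 2 and 3, here and below), at 29.4, 33.7 and 35.9 FPKM in Th17-derived Th1 and at 26.1, 17.5 and 22.6 FPKM in Th1. The Th17-derived Th1 libraries lay above both other groups, which overlapped. The level was above that of Th17 (log2 difference 0.83, SE 0.14, limma adjusted p = 0.00502). With replicate 3 of each group left out the adjusted p was 0.0525.

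Irf9 (chromosome 14, 55603571 to 55610030), the DNA-binding partner of that complex, was at 20.3, 20.9 and 21.6 FPKM in Th17, at 27.9, 30.2 and 35.5 FPKM in Th17-derived Th1 and at 26.4, 18.0 and 23.7 FPKM in Th1. The Th17-derived Th1 libraries were again the highest, by a narrow margin over Th1 replicate 1. Irf9 was higher than in Th17 (log2 difference 0.55, SE 0.14, limma adjusted p = 0.0318). This call was lost without any 1 of the 6 libraries compared, with adjusted p-values of 0.0541, 0.075 and 0.0944 without Th17-derived Th1 replicates 1, 2 and 3 and 0.113, 0.106 and 0.0556 without Th17 replicates 1, 2 and 3.

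Irf7 (chromosome 7, 141262706 to 141266481) encodes the factor that amplifies type I interferon production. Its libraries were at 10.9, 11.1 and 16.7 FPKM in Th17, 21.6, 26.0 and 31.6 FPKM in Th17-derived Th1, and 11.4, 6.31 and 9.59 FPKM in Th1. No Th17-derived Th1 library overlapped another group. Against Th17 the level was higher (log2 difference 0.99, SE 0.23, limma adjusted p = 0.0213). The adjusted p was 0.0614 and 0.0679 without Th17-derived Th1 replicates 2 and 3, and 0.092 and 0.0941 without Th17 replicates 1 and 2. Irf7 shares 45 exonic bases with Phrf1 on the opposite strand and Irf9 shares 123 with Rnf31 on the same strand. Of genes described below, Rnf213 shares 1476 with A930037H05Rik on the opposite strand. Herc6 and Rtp4 share 1269 and 296 with Gm45193 and Gm45338 on the same strand. A930037H05Rik, Gm45193 and Gm45338 are not among the genes with deposited values. Neither the strand setting nor the treatment of reads shared by genes is given, so a part of their reads may belong to the neighbor.

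Isg15 encodes a ubiquitin-like protein that is attached to other proteins after interferon, and Usp18 the protease that removes it and also damps the type I receptor. Isg15 (chromosome 4, 156199424 to 156200818) stood at 3.34, 3.34 and 6.55 FPKM in Th17, 17.2, 14.6 and 19.5 FPKM in Th17-derived Th1, and 12.1, 8.34 and 11.5 FPKM in Th1. The 3 groups did not overlap, with Th1 in the middle. Isg15 was higher in Th17-derived Th1 than in Th17 (log2 difference 1.79, SE 0.23, limma adjusted p = 0.00142).

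Usp18 (chromosome 6, 121245906 to 121270917) was at 3.87, 2.5 and 7.17 FPKM in Th17, at 16.0, 14.2 and 24.7 FPKM in Th17-derived Th1 and at 38.1, 19.4 and 47.3 FPKM in Th1. Here Th1 had the highest mean, and its replicate 2 fell within the range of Th17-derived Th1. Usp18 was above Th17 in Th17-derived Th1 (log2 difference 1.86, SE 0.38, limma adjusted p = 0.0121), a call lost without Th17 replicate 1 (0.0559) or 2 (0.0565). Herc6, the main ISG15 ligase of the mouse, was at 8.71 ± 0.69 FPKM in Th17 and 10.5 ± 1.17 FPKM in Th17-derived Th1, which missed the threshold (adjusted p = 0.254).

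**Figure D3:**
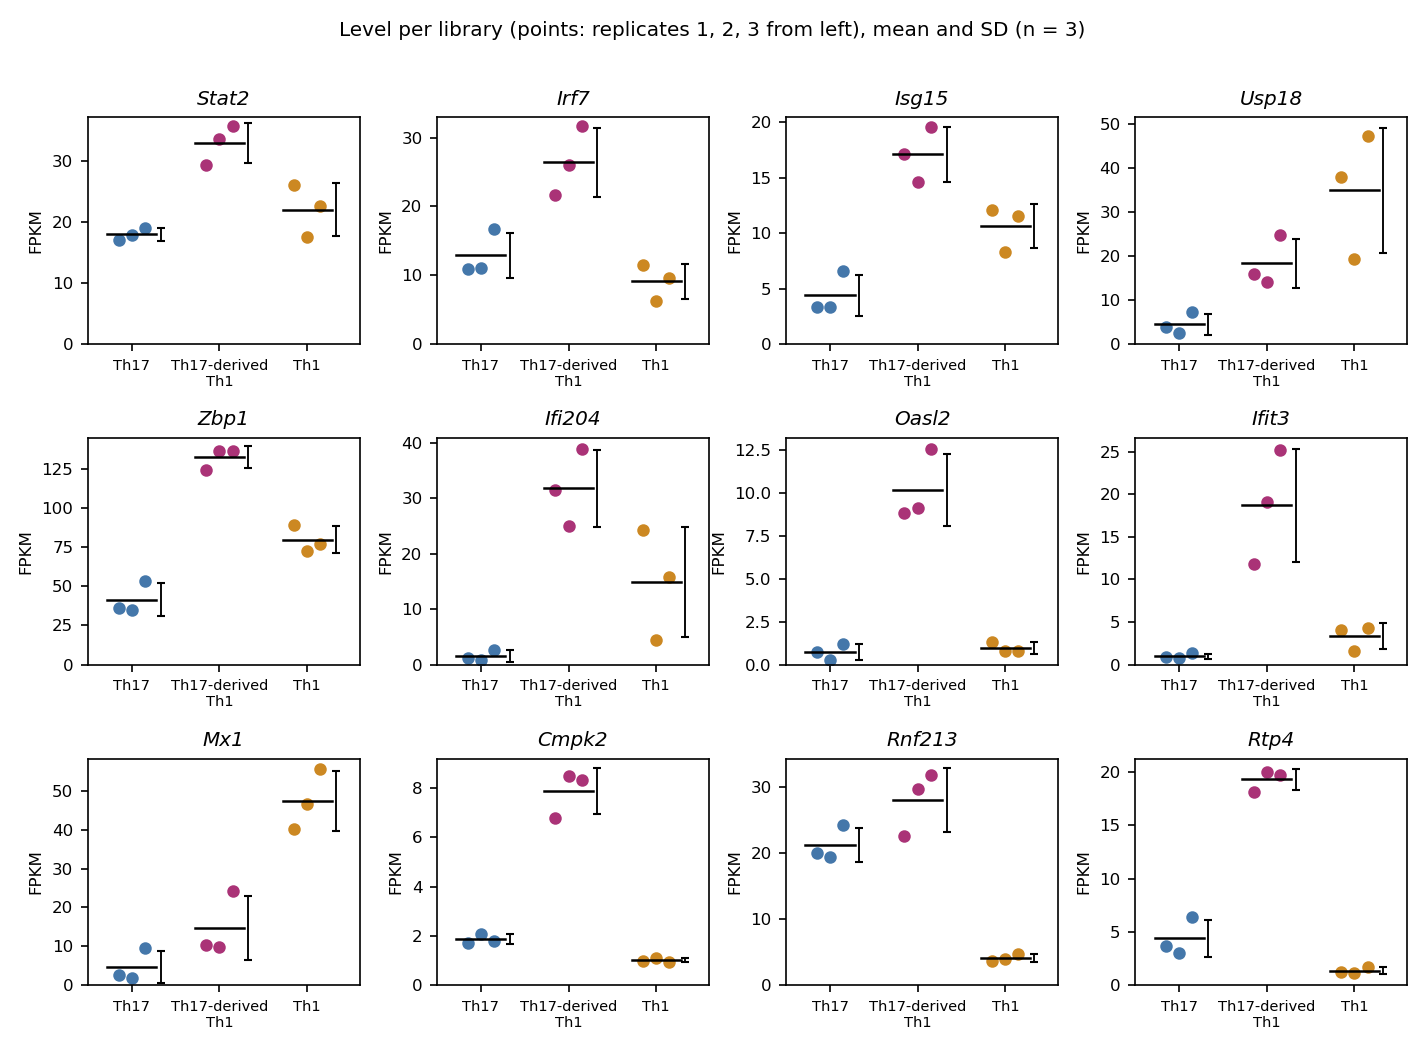
FPKM of 12 antiviral genes in each library, with points for replicates 1, 2 and 3 from left to right, a horizontal line for the mean and a bar for the SD (n = 3). Usp18 and Mx1 have their highest mean in Th1 and the other 10 genes in Th17-derived Th1. Cmpk2, Rnf213 and Rtp4 are lower in Th1 than in Th17.

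Of the 8 sensors of nucleic acid and their relatives, 5 were higher in Th17-derived Th1 than in Th17 cells and 3 did not pass. Ifi204 (chromosome 1, 173747293 to 173766943) belongs to a family of DNA-binding interferon-inducible proteins. It was at 1.10, 0.826 and 2.70 FPKM in Th17, 31.5, 25.0 and 39.0 FPKM in Th17-derived Th1 and 24.3, 4.46 and 15.9 FPKM in Th1. All Th17-derived Th1 libraries were above all Th1 libraries, and Th1 replicate 2 stood apart at the low end of its group. Ifi204 was above Th17 (log2 difference 3.74, SE 0.51, limma adjusted p = 0.00183).

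Zbp1, a sensor of Z-form nucleic acid that can trigger cell death, averaged 132 ± 6.89 FPKM in Th17-derived Th1 and 41.4 ± 10.4 FPKM in Th17, a log2 difference of 1.68. Ifih1, which encodes the RNA sensor MDA5, averaged 4.43 ± 0.552 against 1.49 ± 0.332 FPKM, a log2 difference of 1.13. Dhx58, which encodes its regulator LGP2, averaged 11.0 ± 1.2 against 5.19 ± 0.619 FPKM, a log2 difference of 0.95. Ddx58, which encodes the third RNA sensor of that family, RIG-I, averaged 32.4 ± 0.857 against 28.8 ± 2.35 FPKM, short of the threshold (adjusted p = 0.346). The helicase gene Ddx60 averaged 2.62 ± 0.812 against 1.16 ± 0.487 FPKM and passed at an adjusted p of 0.0401, which held in 2 of 9 fits that each left out 1 library. Eif2ak2, which encodes the RNA-activated kinase PKR, was at 14.6 ± 0.847 against 14.1 ± 3.76 FPKM, and Ifi203, a relative of Ifi204, at 78.8 ± 13.9 against 49.3 ± 1.25 FPKM, and neither passed (adjusted p = 0.767 and 0.247).

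The oligoadenylate synthetases detect double-stranded RNA and make the messenger that activates RNase L. Oasl2 (chromosome 5, 114896936 to 114912234), a relative with ubiquitin-like domains, was at 0.707, 0.26 and 1.22 FPKM in Th17, 8.80, 9.12 and 12.6 FPKM in Th17-derived Th1 and 1.33, 0.776 and 0.77 FPKM in Th1. Th17 and Th1 overlapped, and every Th17-derived Th1 library lay above both. Oasl2 was above Th17 (log2 difference 2.71, SE 0.22, limma adjusted p = 0.000173). Oas2 averaged 3.61 ± 1.09 against 0.262 ± 0.233 FPKM, and Oas3 averaged 30.9 ± 1.57 against 13.4 ± 6.83 FPKM. Oas3 passed (adjusted p = 0.012) and lost its call without Th17 replicate 1 or 2 (0.0592 without replicate 2). The untested Oas1a was at 0.91 to 2.06 FPKM in Th17-derived Th1, 0.099 to 0.477 in Th17 and 0.449 to 0.597 in Th1, and Oasl1 at 0.367 to 0.572, 0.049 to 0.16 and 0.0376 to 0.0988 FPKM in the same order. Neither gene overlapped between Th17-derived Th1 and the other groups.

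The IFIT proteins bind viral RNA ends and block translation, and their 4 genes lie together on chromosome 19. All 4 were higher in Th17-derived Th1 than in Th17. Ifit3 (34583531 to 34588731) was at 0.842, 0.756 and 1.34 FPKM in Th17, 11.8, 19.1 and 25.1 FPKM in Th17-derived Th1 and 4.06, 1.57 and 4.34 FPKM in Th1. The groups did not overlap, and the spread was widest in Th17-derived Th1. Ifit3 was above Th17 (log2 difference 3.27, SE 0.32, limma adjusted p = 0.000377).

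Ifit1 (34640871 to 34650009) was at 0.479, 0.561 and 1.53 FPKM in Th17, 6.59, 7.78 and 11.1 FPKM in Th17-derived Th1 and 3.23, 1.6 and 3.84 FPKM in Th1, and Th17-derived Th1 was above Th17 (log2 difference 2.37, SE 0.29, limma adjusted p = 0.00109). Ifit3b, a near copy of Ifit3, averaged 4.83 ± 1.35 against 0.209 ± 0.106 FPKM. Ifit2 averaged 16.3 ± 3.24 against 9.31 ± 0.795 FPKM and passed at an adjusted p of 0.0485, which held in 2 of 9 fits without 1 library. Reads shared between such copies, and among the Oas, Ifi200, Trim30 and Phf11 families, may have been split in a way that is not given, so values of single copies are uncertain.

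Promoter sequence was available for 32 of the 44 genes (RefSeq, GRCm38.p6, 250 bases before to 50 after the start of transcription) and is shown for genes with large differences. The core of the interferon-stimulated response element was searched on both strands as GAAA, any 2 bases and GAAA again, and it was found in 16 of the 32 genes (50%), against 3.99% of the 27025 genes in the promoter table and 3.9% of tested genes. The gamma-activated site, searched as TTCNNNGAA, which reads the same on both strands, was found in 6 of 32 (18.8%), against 9.55% of genes in the table. The 2 patterns can overlap each other. Of 25 response element matches, 21 began upstream of the start site, at 2 to 222 bases from it over all 25. The following 200-base stretches run from 220 to 21 bases before the start, 5′ to 3′ on the strand of the gene, with response element matches in capitals.
Isg15 (mm10 chr4:156200839-156201038, minus strand): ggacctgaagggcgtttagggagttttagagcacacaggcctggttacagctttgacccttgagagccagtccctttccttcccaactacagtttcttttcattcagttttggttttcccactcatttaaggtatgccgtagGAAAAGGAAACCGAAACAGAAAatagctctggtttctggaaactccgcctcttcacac
Ifit1 (mm10 chr19:34640669-34640868, plus strand): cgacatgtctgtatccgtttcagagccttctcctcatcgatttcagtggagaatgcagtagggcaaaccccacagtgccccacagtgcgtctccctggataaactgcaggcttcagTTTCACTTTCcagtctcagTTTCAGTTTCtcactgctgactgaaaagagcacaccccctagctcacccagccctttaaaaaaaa
Ifit3 (mm10 chr19:34583309-34583508, plus strand): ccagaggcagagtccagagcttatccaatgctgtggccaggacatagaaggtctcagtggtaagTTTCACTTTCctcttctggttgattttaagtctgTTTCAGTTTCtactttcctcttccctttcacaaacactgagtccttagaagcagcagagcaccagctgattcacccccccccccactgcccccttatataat
Ifit3b (mm10 chr19:34607737-34607936, plus strand): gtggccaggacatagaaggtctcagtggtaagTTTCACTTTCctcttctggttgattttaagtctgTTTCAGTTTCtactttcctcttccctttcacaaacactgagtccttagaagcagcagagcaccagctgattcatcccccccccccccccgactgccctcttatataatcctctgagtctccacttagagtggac
Oasl2 (mm10 chr5:114896714-114896913, plus strand): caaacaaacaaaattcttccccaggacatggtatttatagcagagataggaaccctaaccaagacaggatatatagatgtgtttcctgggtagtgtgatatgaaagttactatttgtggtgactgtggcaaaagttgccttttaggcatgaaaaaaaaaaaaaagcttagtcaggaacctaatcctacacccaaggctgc
Isg15 holds 3 overlapping matches beginning 78, 72 and 66 bases before its start. Ifit3 and Ifit3b hold the same 2 matched sequences 34 bases apart, and Ifit1 holds the same 2 sequences 19 bases apart, all on the strand opposite to the gene. Oasl2, whose difference from Th17 (2.71 log2 units) lay between those of Ifit1 and Ifit3, holds no match in this window. Irf7, Irf9, Cmpk2 and Rnf213 hold none either. Of the 39 windows of these genes, 32 ended in an annotated transcript of the gene. The Rnf213 window ends at 119390148, before the gene start given below (119393100), so a match near that start would be missed. The search allowed no mismatch, and a match is a description of letters, not of binding.

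**Figure D4:**
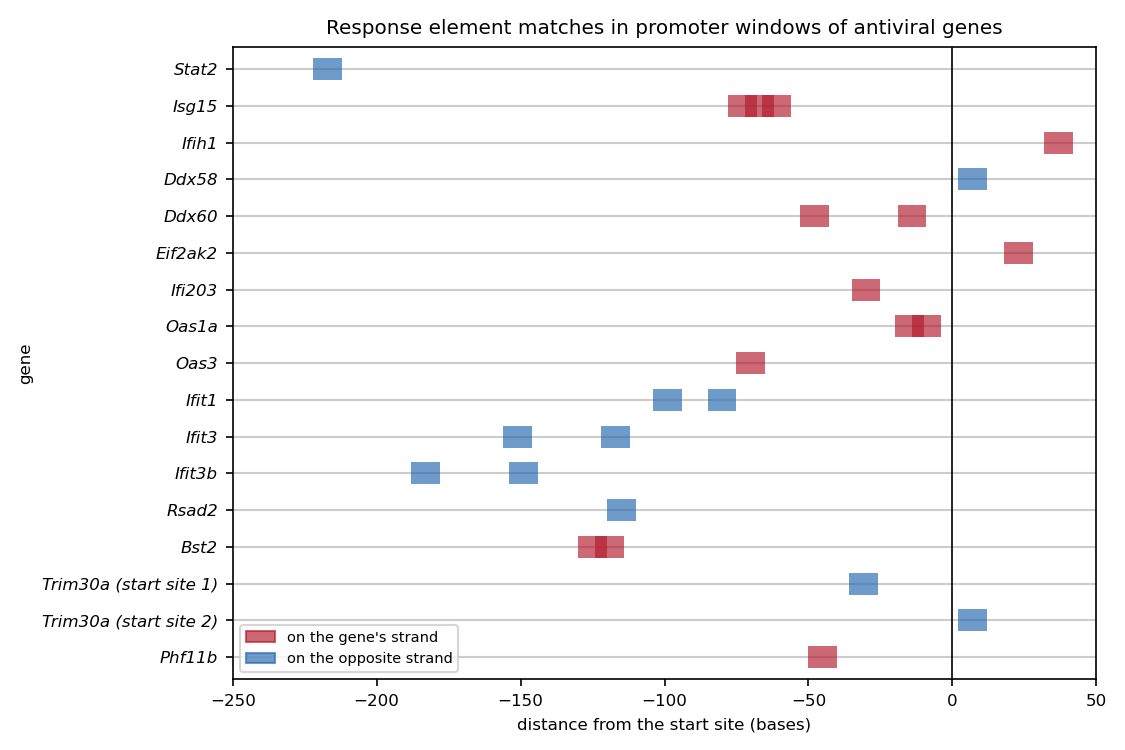
Matches to the response element core in the promoter windows of 16 antiviral genes, drawn as 10-base boxes by distance from the start of transcription (0) in bases; red boxes lie on the strand of the gene and blue boxes on the opposite strand, and darker red marks overlap. Trim30a has 2 annotated start sites. The boxes of Isg15, Oas1a and Bst2 overlap, and 21 of the 25 matches begin upstream of the start.

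Tested genes with and without a response element match were both higher in Th17-derived Th1 than in Th17 at the median. The 14 with a match had a median difference of 0.98 log2 units and 10 passed, and the 15 without had a median of 0.55 and 8 passed. The medians were 0.55 and 0.10 in Th1 against Th17, with 7 and 1 genes higher and 0 and 2 lower, and 0.48 and 0.40 in Th17-derived Th1 against Th1, with 5 and 4 higher. Over all tested genes 6.43%, 14% and 5.67% were higher and 9.49%, 28.9% and 4.81% lower in the same order of comparisons. The medians of genes with and without a match describe the list and were not tested against each other.

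Mx1 (chromosome 16, 97447035 to 97462907) encodes a GTPase that traps viral nucleoproteins, and the allele of C57BL/6 mice is known to be defective. Its libraries were at 2.71, 1.82 and 9.42 FPKM in Th17, 10.3, 9.72 and 24.3 FPKM in Th17-derived Th1 and 40.1, 46.8 and 55.6 FPKM in Th1. The groups did not overlap, and replicate 3 was the highest of each group. In Th17-derived Th1 against Th17 the log2 difference was 1.6 (SE 0.48) and did not pass (limma adjusted p = 0.0509). Without Th17 replicate 3 the log2 difference was 2.17 and passed (0.00677), and it also passed without Th1 replicate 2 (0.0459). Mx2, annotated as a polymorphic pseudogene, was at 0.206 to 0.529 FPKM in Th17-derived Th1, 0.11 to 0.359 in Th1 and 0 to 0.113 in Th17.

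Among inhibitors of viral replication and release, 2 of the 6 tested genes were higher in Th17-derived Th1 than in Th17. Cmpk2, which encodes a mitochondrial nucleotide kinase, averaged 7.87 ± 0.935 against 1.86 ± 0.20 FPKM, a log2 difference of 1.63 (adjusted p = 9.04e-05). Its neighbor Rsad2, which encodes viperin and lies on the opposite strand of chromosome 12, was not tested and stood at 0.538 to 0.835 FPKM in Th17-derived Th1, 0.0533 to 0.218 in Th17 and 0.114 to 0.164 in Th1. Trim30a averaged 37.7 ± 5.43 against 24.1 ± 2.43 FPKM and passed at an adjusted p of 0.0343, kept in 3 of 9 fits without 1 library. Bst2, which encodes the virion tether tetherin, the exonuclease gene Isg20, Samd9l and the ubiquitin ligase gene Rnf213 did not pass (adjusted p = 0.113, 0.626, 0.828 and 0.118).

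Parp9, Parp14 and Dtx3l, which encode ADP-ribosyltransferases and the ubiquitin ligase partner of PARP9, were all higher in Th17-derived Th1, by 0.92, 0.81 and 0.77 log2 units. Parp9 and Dtx3l share 458 exonic bases on opposite strands, so their values are not independent. Of the 9 remaining interferon-induced genes, 5 passed. Rtp4, which encodes a receptor transporter that also restricts flaviviruses, averaged 19.3 ± 1.01 against 4.38 ± 1.77 FPKM (log2 difference 1.97). Ifi27l2a, a small mitochondrial protein gene, averaged 196 ± 18.4 against 63.4 ± 4.89 FPKM (log2 difference 1.61), Phf11b 40.8 ± 4.22 against 18.1 ± 5.36 FPKM, Ifi44 1.15 ± 0.21 against 0.0518 ± 0.0302 FPKM, and Xaf1, which encodes a binding partner of the apoptosis inhibitor XIAP, 13.3 ± 1.51 against 6.78 ± 2.54 FPKM. Ifi35, Sp100, Lgals3bp and Tor3a did not pass (adjusted p = 0.143 to 0.885).

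Of the 27 calls, 18 held in each fit that left out 1 library and tested the gene. Oas2 is counted among these 18 but was tested in 6 of 9 such fits. Without a Th17-derived Th1 library it was not tested, so those fits could not remove its call, and its place here is a description. The other 9 were Irf9, Irf7, Usp18, Ddx60, Oas3, Ifit2, Trim30a, Dtx3l and Xaf1. Without Th17 replicate 2 their adjusted p-values reached 0.0565 for Usp18 and 0.151 for Ifit2. In that fit 18 antiviral genes remained called, beside 681 of all tested genes, against 27 and 1678 in the main fit.

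The second comparison set Th1 against Th17 cells, which kept their own conditions throughout. Of the 44 genes, 15 were higher in Th1, 3 were lower, 22 did not pass and 4 were not tested, beside 14% of all tested genes that were higher and 28.9% that were lower. The median difference was 0.33 log2 units against -0.17 for all tested genes. Mx1 and Usp18 led the higher genes, and Rnf213, Rtp4 and Cmpk2 were the lower ones. All 3 Th1 libraries were above all 3 Th17 libraries in 15 of the 44 genes, as in 16.4% of tested genes, and below them in 3, as in 36.4%.

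Mx1 had a mean of 47.5 ± 7.77 FPKM in Th1 cells, compared with 4.65 ± 4.15 FPKM in Th17 cells (log2 difference 3.33, SE 0.48, limma adjusted p = 0.00096). Usp18 averaged 34.9 ± 14.2 against 4.51 ± 2.4 FPKM (log2 difference 2.70, SE 0.38, adjusted p = 0.000892). Ifi204 was higher (log2 difference 2.45, SE 0.51, adjusted p = 0.00505), at 4.46 FPKM in Th1 replicate 2 and 15.9 to 24.3 FPKM in the others. Phf11b (chromosome 14, 59320964 to 59341351), which encodes a PHD finger protein, was at 48.9, 32.3 and 48.9 FPKM in Th1, 40.1, 37.0 and 45.3 FPKM in Th17-derived Th1 and 15.1, 14.9 and 24.2 FPKM in Th17. It was above Th17 (log2 difference 1.23, SE 0.21, adjusted p = 0.00238), and the Th1 libraries spanned the range of Th17-derived Th1.

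Rnf213 (chromosome 11, 119393100 to 119487418) encodes a very large ubiquitin ligase that acts against intracellular microbes. It was at 3.58, 3.91 and 4.71 FPKM in Th1, 20.1, 19.4 and 24.2 FPKM in Th17 and 22.5, 29.8 and 31.8 FPKM in Th17-derived Th1. Th1 stood far below both groups that began in the Th17 condition, which overlapped. Its log2 difference of Th1 from Th17 was -2.13 (SE 0.15, limma adjusted p = 3.22e-05).

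Rtp4 (chromosome 16, 23520291 to 23614222) was at 1.25, 1.13 and 1.71 FPKM in Th1, 3.71, 3.04 and 6.38 FPKM in Th17 and 18.2, 20.1 and 19.7 FPKM in Th17-derived Th1, so the 3 groups did not overlap. Its log2 difference of Th1 from Th17 was -1.14 (SE 0.20, adjusted p = 0.00266). Cmpk2 (chromosome 12, 26469204 to 26479837) was at 0.974, 1.10 and 0.949 FPKM in Th1, 1.70, 2.08 and 1.79 FPKM in Th17 and 6.79, 8.5 and 8.32 FPKM in Th17-derived Th1. The order was that of Rtp4, again with no overlap. The log2 difference was -0.51 (SE 0.12, adjusted p = 0.00811), with an adjusted p of 0.0597 when replicate 3 of each group was left out.

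By role, Stat2, Irf9 and Irf7 did not pass between Th1 and Th17 (adjusted p = 0.159, 0.601 and 0.13), whereas Isg15 was higher in Th1 (log2 difference 1.14, SE 0.23, adjusted p = 0.00462). Ifih1 and Zbp1 were each higher by about 1 log2 unit (0.96 and 0.95), and Oas3 by 1.16. Ifit1, Ifit3 and Ifit3b were higher by 1.06, 1.07 and 0.73, Parp9 and Parp14 by 0.61 and 0.50, Ifi44 by 1.16 and Tor3a, a torsin ATPase gene, by 0.70. Oas2 and Oasl2 did not pass, with Th1 means of 0.652 ± 0.281 and 0.959 ± 0.322 FPKM beside Th17 means of 0.262 ± 0.233 and 0.728 ± 0.48 FPKM.

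Of the 18 calls, 14 held in each fit that left out 1 library. Ifit1, Ifit3, Ifit3b and Parp14 lost theirs without at least Th1 replicate 1, Th1 replicate 3, Th17 replicate 1 or Th17 replicate 2, with adjusted p-values of up to 0.0672, 0.0947, 0.142 and 0.0812. Without Th1 replicate 2, the library with the lowest antiviral values of its group, 22 antiviral genes were higher and 3 lower. Over all tested genes that fit called 1662 higher and 3738 lower, against 1478 and 3048 in the main fit.

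The third comparison set Th17-derived Th1 against Th1 cells, which shared the Th1 condition from day 7 to day 10 and differed in the condition before it. Of the 44 genes, 14 were higher in Th17-derived Th1, 0 were lower, 26 did not pass and 4 were not tested, beside 5.67% of tested genes that were higher and 4.81% that were lower. At an unadjusted limma p below 0.05, 21 were higher and 2 lower, again without a count of all tested genes at that limit. Without Oas2, 13 of 39 tested genes were higher. The median difference was 0.41 log2 units against 0.05 for all tested genes. The largest differences were those of Rtp4, Rnf213, Oasl2 and Ifit3. All 3 Th17-derived Th1 libraries were above all 3 Th1 libraries in 26 of the 44 genes, as in 16.3% of tested genes, and below them in 1 (Mx1), as in 12.9%.

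Rtp4 was higher (log2 difference 3.11, SE 0.20, limma adjusted p = 0.000105), with the lowest Th17-derived Th1 library at 18.2 FPKM and the highest Th1 library at 1.71 FPKM. Rnf213 was higher by 2.51 log2 units (SE 0.15, adjusted p = 6.81e-05) and Oasl2 by 2.51 (SE 0.22, adjusted p = 0.000607). Ifit3 was higher by 2.20 (SE 0.32, adjusted p = 0.00479), and Cmpk2 by 2.14 (SE 0.12, adjusted p = 5.8e-05). Rnf213, Rtp4 and Cmpk2 thus differed more from Th1 than from Th17 in their log2 differences (2.51, 3.11 and 2.14 against 0.38, 1.97 and 1.63). Among the genes that passed here, so did Irf7 and Ddx60 (1.46 and 1.05 against 0.99 and 0.74). The 2 comparisons share the Th17-derived Th1 libraries.

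Irf7 was higher in Th17-derived Th1 than in Th1 (log2 difference 1.46, SE 0.23, adjusted p = 0.00629). Stat2 was higher by 0.57 (SE 0.14, adjusted p = 0.0354), and Irf9 did not pass (0.45, SE 0.14, adjusted p = 0.0769). Ifit1, Ifit3b and Ifi27l2a were higher by 1.31, 1.52 and 1.51 log2 units, and the sensor genes Zbp1, Dhx58 and Ddx60 by 0.73, 0.60 and 1.05.

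Isg15 did not pass (log2 difference 0.64, SE 0.23, adjusted p = 0.113), nor did Usp18, which was lower at the mean (-0.84, SE 0.38, adjusted p = 0.199 and 0.0413 without Th1 replicate 2). Mx1 was at -1.73 (SE 0.48) with an adjusted p of 0.0518, just outside the threshold, and passed without Th17-derived Th1 replicate 3 (0.0254) or Th17 replicate 3 (0.014). When the replicate number was fitted as a block, Isg15 passed as higher and Usp18 and Mx1 as lower. Ifi204, Oas3, Ifih1, Phf11b, Ifi44, Parp9, Parp14 and Dtx3l did not pass here, with differences between -0.13 (Ifi44) and 1.28 (Ifi204). All of these but Dtx3l were higher in Th1 than in Th17. Tor3a, also higher in Th1 than in Th17, was lower here at the mean and did not pass (log2 difference -0.57, SE 0.17, limma adjusted p = 0.0604).

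Of the 14 calls, 9 held in each fit that left out 1 library and tested the gene. Oas2 is counted among these 9 but was tested in 6 of 9 such fits. The fits without a Th17-derived Th1 library did not test it and could not remove its call. Without Th17-derived Th1 replicate 1 or 2 the higher antiviral genes numbered 9 each, beside 237 and 195 of all tested genes, against 597 in the main fit. The count of 0 lower antiviral genes became 2 without Th1 replicate 2 or Th17-derived Th1 replicate 3 and 1 without Th17 replicate 3. Over all tested genes 794, 627 and 525 were lower in these fits, against 507 in the main fit. The count of lower antiviral genes also became 2 when the replicate number was fitted as a block, with 621 of all tested genes lower. Stat2, Dhx58, Ddx60, Zbp1 and Ifit1 lost their calls without at least 1 library, with adjusted p-values of up to 0.131 (Stat2, without Th17-derived Th1 replicate 2), 0.0889 (Dhx58, without Th17-derived Th1 replicate 1), 0.0643 (Ddx60, without Th1 replicate 3), 0.0909 and 0.0802 (Zbp1 and Ifit1, without Th17-derived Th1 replicate 2).

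Messenger RNA of the interferons themselves was looked at in the same libraries. Of 20 type I and III interferon genes in the table, 15 were listed at 0 in all 9 libraries, Ifnb1 among them, and the highest value of the other 5 was 0.247 FPKM (Ifnk). Interferon-alpha genes are close copies of each other, and the treatment of reads that match several of them is not given. Ifng, the gene of interferon-gamma, was at 14.2 to 40.7 FPKM in Th17, 717 to 990.3 FPKM in Th17-derived Th1 and 1005 to 2013 FPKM in Th1. Ifng thus had its highest mean in Th1, as did Mx1 and Usp18, Ifi44, Sp100, Phf11b and Tor3a, whereas the other antiviral genes except Samd9l, which was highest in Th17, had theirs in Th17-derived Th1. This ranks means alone. None of the antiviral genes highest in Th1 passed against Th17-derived Th1, and 14 of the others did. Th1 replicate 2 held the highest Ifng value, 2013 FPKM, and the lowest value of its group for 30 of the 40 tested antiviral genes. Whether any of them follow Ifng was not tested.

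Among receptor and proximal signaling genes, Ifngr1 and the kinase gene Jak2 were higher in Th17-derived Th1 than in Th17 cells (adjusted p = 0.0497 and 0.0356), and Ifngr2 was lower (adjusted p = 0.000987). Ifnar1 and Ifnar2, the type I receptor chains, did not pass in any comparison and ranged from 31.9 to 50.6 and from 23.1 to 34.2 FPKM. Ifngr2, the signaling chain of the interferon-gamma receptor, averaged 0.409 ± 0.296 FPKM in Th1, 4.45 ± 0.281 FPKM in Th17-derived Th1 and 14.7 ± 2.93 FPKM in Th17. Of 6 negative regulators, 0 were higher and 1 was lower (Ptpn6) in Th17-derived Th1 against Th17, beside 6.43% of all tested genes higher and 9.49% lower. In Th1 against Th17, 1 was higher (Ptpn2) and 3 were lower (Socs3, Ptpn6 and Pias1), beside 14% of tested genes higher and 28.9% lower. In Th17-derived Th1 against Th1, 2 were higher, Socs3 by 1.74 log2 units (adjusted p = 0.000904) and Pias1 by 0.36 (adjusted p = 0.0408). There 0 were lower, beside 5.67% of tested genes higher and 4.81% lower.

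A list of 24 genes that answer mainly to interferon-gamma, among them guanylate-binding proteins, immunity-related GTPases and antigen processing genes, was set beside the antiviral genes. Of its 22 tested genes, 17 were higher and 0 lower in Th17-derived Th1 against Th17 (median 0.94 log2 units), 14 and 0 in Th1 against Th17 (median 0.80), and 3 and 0 in Th17-derived Th1 against Th1 (median 0.17). The corresponding counts of the antiviral genes were 27 and 0, 15 and 3, and 14 and 0 of 40, with medians of 0.93, 0.33 and 0.41. Beside both lists, 6.43%, 14% and 5.67% of all tested genes were higher and 9.49%, 28.9% and 4.81% lower. The difference between the lists was not tested. The 3 interferon-gamma-weighted genes higher in Th17-derived Th1 than in Th1 were Cxcl10, Irgm1 and Irgm2, by 2.31, 0.95 and 0.83 log2 units.

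**Figure D5:**
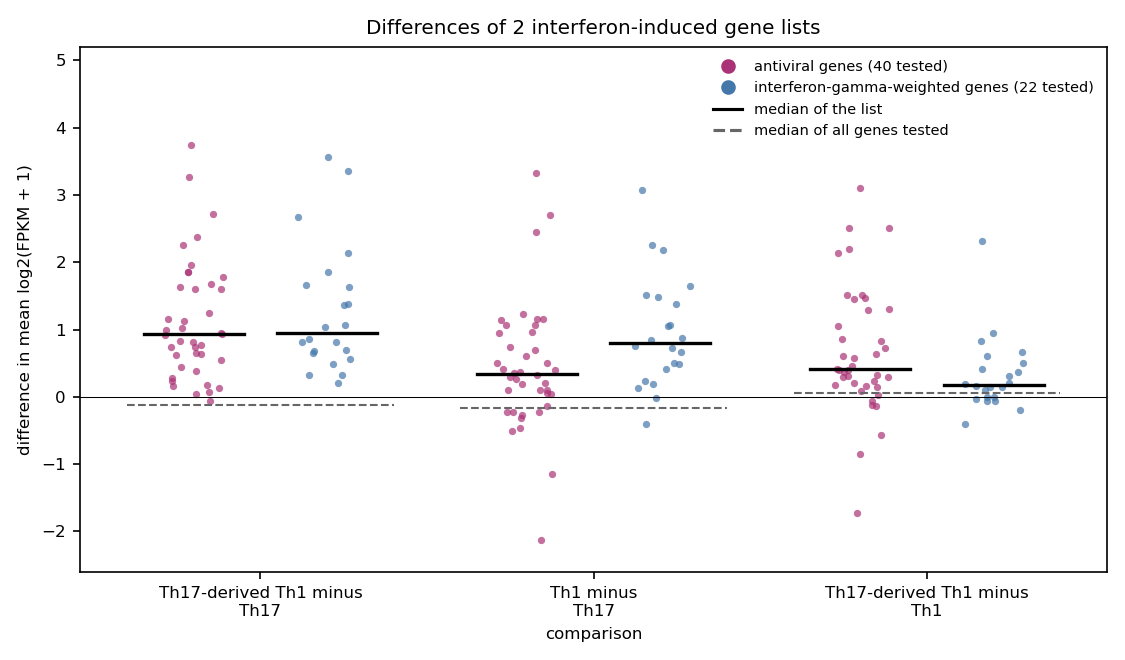
Differences in mean log2(FPKM + 1) in the 3 comparisons for the 40 tested antiviral genes (purple) and 22 tested interferon-gamma-weighted genes (blue), 1 point per gene, with black lines at the list medians and dashed lines at the median of all tested genes. Both lists have a median near 0.9 in Th17-derived Th1 minus Th17, and the antiviral genes spread from -2.13 to 3.33 in Th1 minus Th17.

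The deposited scaling bears on these directions. With median-ratio scaling the median of all tested genes moved from -0.12 to -0.01 log2 units in Th17-derived Th1 against Th17 and from -0.17 to -0.02 in Th1 against Th17, and the share of calls that were higher moved from 40.4% to 63% and from 32.7% to 53.8%. The antiviral genes then counted 27 higher and 0 lower, 17 and 3, and, in Th17-derived Th1 against Th1, 12 and 1, and no called antiviral gene changed its sign.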

How the data were processed

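The authors deposited FPKM values for 22017 gene symbols in 9 libraries, per the file headers. The mm10 build, HISAT2 and DESeq2 are named in the submitters' processing notes; versions, roles, annotation, strand setting and treatment of multiply mapped reads are not stated by those sources. FPKM carries no counts, so depth is unknown, and a few abundant transcripts lower all other values of a library.

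Groups and replicate numbers came from sample titles. limma (version 3.58.1, R 4.3.3, with a mean-variance trend) was fitted to log2(FPKM + 1) of 10538 genes in all 9 libraries, with 6 residual degrees of freedom and two-sided tests. Members and gene lists were chosen with earlier results of these data known. Full statistics are given for the 4 largest called differences per direction and comparison and for Stat2, Irf9, Irf7, Usp18 and Isg15; other genes come from fixed lists, of which 1 gene is not reported here. On simulated data (10538 genes, 200 changed) the fit recovered 86.6%, 89.6% and 88.1% of 2-fold changes in the 3 comparisons in order, with 6.55%, 8.77% and 4.88% false calls. Of 1.5-fold changes it recovered 49.3%, 47.8% and 46.3%, so a smaller difference that did not pass may be real. The data themselves gave 1678, 4526 and 1104 calls, more than the 200 changed genes simulated, so these rates may differ in them. Positions are from GENCODE M21 (GRCm38). Alternatives were pseudocounts, filters, scalings, a replicate block, 2-group fits, array weights, a Cd8a and Cd8b1 covariate and the omission of libraries. Figures were drawn with Python 3.11.15 and matplotlib 3.10.9.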

Additional observations from a re-analysis of the deposited data

How the results depend on the processing

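Over 21 alternative settings (12 changes of processing and 9 fits that each left out 1 library) no antiviral gene that was called changed its sign. Calls held in all settings that tested the gene for 16 of 27 genes in Th17-derived Th1 against Th17. The counts were 13 of 18 in Th1 against Th17 and 8 of 14 in Th17-derived Th1 against Th1. Oas2 was tested in 6 of the 9 fits without 1 library and in 11 of the 12 changes of processing, and settings that did not test it could not remove its call. Ifi44 was tested in 10 of those 12. Array weights gave the most calls: 4603 genes in all in the first comparison, 7116 in the second with 25 antiviral genes higher and 5 lower, and 5430 in the third with 22 higher and 5 lower. Without replicate 3 of any group the first comparison called 1036 genes and the third 596, the latter with 9 antiviral genes higher and 1 lower, and fits of 2 groups only called 703 genes in the third with 1 antiviral gene lower. The count of 0 lower antiviral genes in the third comparison became 1 with a pseudocount of 5, with median-ratio scaling, with quantile normalization and with the Cd8a and Cd8b1 covariate. When 1 library was left out, the genes called in all ran from 681 to 2342 in the first comparison, 3013 to 5400 in the second and 315 to 1861 in the third, where antiviral genes numbered 9 to 17 higher and 0 to 2 lower. The cause of these shifts was not tested beyond the smaller number of samples. Same-numbered libraries did not deviate together in every pair (correlations of deviations from -0.178 to 0.659 over 9 pairs). Yet 6 of 9 libraries correlated best with their own number, and Th17-derived Th1 and Th1 correlated at 0.537 and 0.659 in replicates 2 and 3. Whether the numbers mark pairs is thus not known, and the main fits do not use them. With the replicate block the antiviral genes counted 27 and 0, 17 and 3, and 17 and 2. Under the block Mx1 became a call in the first and the third comparison and Ddx60 lost its call in the first; Dhx58 and Dtx3l became calls in the second, and Isg15, Ddx58 and Xaf1 (higher) and Usp18 (lower) in the third. The unknown depth leaves low genes such as Oas1a, Oasl1, Mx2 and Rsad2 without a counting error.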

Other observations

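Genes of sensing and induction upstream of interferon production, with adaptors and enzymes among them, were measured in the same libraries. The antiviral genes themselves are not in this list. Of 13 tested genes, 4 were higher and 1 lower in Th17-derived Th1 than in Th17 cells, Th1 against Th17 gave 4 higher and 4 lower, and Th17-derived Th1 against Th1 gave 3 higher and 0 lower. Over all tested genes 6.43%, 14% and 5.67% were higher and 9.49%, 28.9% and 4.81% lower in the same order. Samhd1, which encodes a nucleotide hydrolase that limits retroviruses, averaged 310 ± 40.7 FPKM in Th17-derived Th1, 135 ± 3.35 FPKM in Th17 and 163 ± 45.8 FPKM in Th1 (SD, n = 3 in each group), and passed against both by limma (adjusted p = 0.00446 and 0.018). Tmem173, which encodes the DNA-pathway adaptor STING, was higher in Th17-derived Th1 and in Th1 than in Th17 by 0.83 and 0.78 log2 units of FPKM + 1, and the Toll-like receptor adaptor gene Myd88 by 0.86 and 1.02. Mavs, the adaptor gene of the RNA sensors, was lower than in Th17 in both groups, with log2 differences of -0.65 and -0.64. Adar, which encodes an RNA-editing enzyme, was higher in Th17-derived Th1 than in Th1 by 0.60 (adjusted p = 0.00273).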
